A study of Mus musculus with 13 samples.

Results

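The genes of the RUNX and ETS transcription factors of blood cells were examined in a ChIP-seq study of STAT5A, LSD1 and HDAC3 in mouse Ba/F3 cells. The 10 genes are Runx1, Runx2, Runx3 and Cbfb of the RUNX complex, and Spi1, Fli1, Erg, Etv6, Ets1 and Elf1 of the ETS family, out of 21887 protein-coding genes with known bounds. All regions that the authors called inside a gene's mm10 bounds or within 50 kb of them were taken, a rule that uses no measured value. Ba/F3 is an established pro-B cell line that needs interleukin 3 (IL3) to live, and it was kept in medium with 1 ng/mL IL3. In the group called "without IL3" the cells had gone 6 h with no IL3. In the group called "with IL3" the same 6 h without the cytokine were followed by 30 min in 10 ng/mL IL3. Each of the 3 antibodies was used on 2 biological replicates per group, so both groups had been starved and neither is cells in steady growth. Regions were called on every library by itself and, per the labels, once more on the pooled library of each protein and group. The series lists 13 samples, the last of them 1 input library from cells in continuous IL3, which was not analysed here. The same 1 cell line was used throughout, and region lists do not measure expression, so the labelled cell type was not checked against marker transcripts.

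STAT5A is the transcription factor that JAK kinases activate below the IL3 receptor. LSD1 (the product of Kdm1a) removes methyl groups from histone H3 within CoREST complexes. HDAC3 removes acetyl groups from histones within the NCoR and SMRT corepressor complexes. RUNX proteins bind DNA as heterodimers with CBFβ, the product of Cbfb, which does not itself contact DNA. Runx1 is needed for the first definitive blood stem cells, Runx2 is best known as the factor that makes bone-forming cells, and Runx3 acts in T cells and sensory neurons. ETS factors recognise a GGA core. Spi1 encodes PU.1, which directs myeloid and B cell development. Fli1 and Erg are close relatives that act in stem cells, megakaryocytes and blood vessels. Etv6 encodes the repressor TEL, and Ets1 and Elf1 are prominent in lymphocytes. Runx1 is transcribed from a distal and a proximal promoter, with a well-studied blood enhancer between them, and Spi1 has a well-studied upstream regulatory element. The coordinates of these elements are not in the sources used here, so no region below was matched to them.

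Promoter sequences were read first, because the Runx1 promoter was the most widely occupied among these genes and shares a run of letters with those of its relatives. RefSeq promoters on GRCm38.p6, from 250 bases before to 50 bases after a start site, were found for 7 of the 10 genes, 12 start sites in all; Spi1, Fli1 and Ets1 had no entry. The 4 sequences below are written 5′ to 3′ on the transcribed strand, with capitals at matches to the RUNX motif TGTGGT (or its reverse complement) in the RUNX genes and to the STAT motif TTCNNNGAA in Etv6.
Runx1, distal start, chr16:92826025-92826324, minus strand: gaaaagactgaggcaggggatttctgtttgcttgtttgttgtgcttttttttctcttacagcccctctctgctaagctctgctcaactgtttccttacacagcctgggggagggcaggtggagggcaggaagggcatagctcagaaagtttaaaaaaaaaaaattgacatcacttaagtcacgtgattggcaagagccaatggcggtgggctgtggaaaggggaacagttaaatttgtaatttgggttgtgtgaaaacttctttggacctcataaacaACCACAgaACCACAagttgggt
Runx2, chr17:44814578-44814877, minus strand: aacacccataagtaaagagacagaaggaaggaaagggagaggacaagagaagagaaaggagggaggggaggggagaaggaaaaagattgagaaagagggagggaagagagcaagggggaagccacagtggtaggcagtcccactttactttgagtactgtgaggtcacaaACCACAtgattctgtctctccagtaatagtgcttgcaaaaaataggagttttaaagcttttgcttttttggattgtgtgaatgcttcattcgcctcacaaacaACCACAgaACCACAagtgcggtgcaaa
Runx3, first start, chr4:135120395-135120694, plus strand: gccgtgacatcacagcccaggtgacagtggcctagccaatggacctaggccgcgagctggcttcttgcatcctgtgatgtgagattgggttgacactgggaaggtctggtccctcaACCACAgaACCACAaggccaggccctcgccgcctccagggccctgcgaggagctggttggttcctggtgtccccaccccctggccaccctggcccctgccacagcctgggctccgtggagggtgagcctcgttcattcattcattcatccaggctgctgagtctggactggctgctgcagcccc
Etv6, chr6:134035450-134035749, plus strand: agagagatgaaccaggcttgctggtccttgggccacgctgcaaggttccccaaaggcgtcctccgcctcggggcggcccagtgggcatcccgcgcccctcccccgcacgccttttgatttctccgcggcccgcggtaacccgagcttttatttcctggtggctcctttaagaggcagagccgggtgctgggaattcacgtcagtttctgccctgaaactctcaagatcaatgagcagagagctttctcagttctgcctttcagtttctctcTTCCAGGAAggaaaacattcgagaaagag

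The 3 RUNX promoters each hold the 18-base run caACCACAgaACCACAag, which carries 2 RUNX matches 2 bases apart. It lies 26 to 43 bases after the distal start of Runx1, 21 to 38 bases after the start of Runx2, and between positions -136 and -119 of the first start of Runx3. The run was found after the sequences had been looked at. It was in 4 of 32851 promoter windows (0.0122%), and the fourth, of Gm16225, covers the Runx3 one. The looser form ACCACANNACCACA was in 7 windows (0.0213%). Each motif was searched on both strands. The RUNX motif alone was in 16.8% of all windows, and it matched 2 times in the Runx1 distal, 3 times in the Runx2 and 2 times in the Runx3 promoter. The STAT motif was in 8.3% of windows and matched once, in Etv6, as TTCCAGGAA, whose GGA letters are also an ETS core. The ETS motif CCGGAAG was in 8.86% of windows and in none of the 12. A match describes letters in these windows and is not a measured site.

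Of those promoters, that of Runx1 at the distal start was overlapped by regions of 5 of the 6 pooled lists, all except STAT5A without IL3. The LSD1 region with IL3 there had a score of 50.1, rank 427 of 17087 in its pooled list, and that without IL3 had 48.2, rank 1864 of 16886. Scores are the authors' own and carry no definition in the sources used here. They are used only to rank regions within 1 list, with ties given the best rank. The STAT5A region with IL3 ranked 4152 of 15543 and was also called in replicate 1. HDAC3 ranked 1117 of 3347 without and 702 of 1208 with IL3, from pooled libraries alone. All 5 pooled regions covered the 18-base run, and the LSD1 region without IL3, for example, ran from 7 bases before to 165 bases after the start. At the first Runx3 start the pooled LSD1 region without IL3 lay from 212 to 40 bases before it, over the run as well, at rank 6298 of 16886, and HDAC3 was called there in replicate 1 without IL3. The Runx2 promoter, with the same run, was overlapped by no region of any of the 18 lists. At Etv6 2 pooled STAT5A regions with IL3 overlapped the promoter window at ranks 8271 and 9435 of 15543, and the second, from 18 bases before to 156 after the start, held the STAT match. That of Cbfb was overlapped by STAT5A with IL3 and LSD1 without IL3, and that of Elf1 by STAT5A without IL3 and LSD1 with IL3. The proximal Runx1 start, the 3 Erg starts and the second Elf1 start had none. Over all genes' promoters the share overlapped was 6.96% for STAT5A without and 7.96% with IL3, 14.2% and 15.2% for LSD1, and 2.03% and 0.511% for HDAC3. The 12 windows of these genes gave 1 and 3 for STAT5A, 3 and 4 for LSD1, and 1 and 1 for HDAC3.

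The lists differ widely in length, and replicates of a group differ as much as groups do. On assembled chromosomes the pooled lists held between 1208 regions (HDAC3 with IL3) and 17087 (LSD1 with IL3), and the replicate lists between 234 and 15783. Regions of 1 list all have the same width, 123 to 235 bp, and the weakest called held 4 to 6 score steps, below which nothing was called. Read totals are not given, so depth is unknown. LSD1 without IL3 replicate 1 stood apart with 1005 regions against 15783 in replicate 2, and STAT5A without IL3 replicate 1 with 352 against 4504. HDAC3 replicate 2 had 533 regions without and 234 with IL3, 1 of them with a score of 76945.2, and it had 0 at these genes in both conditions. Every HDAC3 value below therefore rests on replicate 1 or on the pooled library. The replicates are labelled biological, but no culture date or batch is given, so p-values measure only the spread between these libraries.

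STAT5A regions at the 10 genes numbered 2 and 18 in the replicate lists without IL3 and 68 and 23 in those with IL3, which is 10.0 ± 11.3 against 45.5 ± 31.8 (mean ± SD, n = 2 each). Both lists with IL3 were above both without. The log2 ratio of the means, with 0.5 added to each count, was 2.13, at the lowest two-sided exact permutation p that the design can reach, 0.333. Leaving out the libraries without IL3 gave 1.31 (replicate 1) or 4.2 (replicate 2), and leaving out replicate 1 with IL3 gave 1.16. The lists with IL3 were longer as a whole too. Per 1000 regions of its list, these genes held 5.68 and 4.0 STAT5A regions without and 5.01 and 3.66 with IL3, and the groups overlapped. The log2 ratio was -0.35 (two-sided exact permutation p 0.667). It was taken with 0.5 added to each count before the division, which weighs most in the shortest list, replicate 1 without IL3. With replicate 1 without IL3 left out, that ratio was 0.1. The pooled lists went the other way, with 3.97 per 1000 without and 4.89 with IL3, and carry no replicate error.

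LSD1 regions at these genes numbered 5 and 65 without IL3 and 22 and 47 with IL3, 35.0 ± 42.4 against 34.5 ± 17.7. The groups overlapped, with a log2 ratio of -0.02 (two-sided exact permutation p 1). Leaving out replicate 2 without IL3 gave 2.67 and leaving out replicate 1 gave -0.9, so the direction is set by which library is kept. Of the libraries with IL3, leaving out replicate 1 gave 0.42 and replicate 2 gave -0.66. Per 1000 regions the values were 4.97 and 4.12 without and 3.4 and 4.06 with IL3. Both lists with IL3 were just below both without, a log2 ratio of -0.34 at the smallest p the design allows (two-sided exact permutation p 0.333). HDAC3 regions numbered 19 and 0 without and 5 and 0 with IL3, 9.5 ± 13.4 against 2.5 ± 3.5, a log2 ratio of -1.74 (two-sided exact permutation p 1). The direction turned, to 2.58, when replicate 1 without IL3 was left out, and the ratio was -2.7 when replicate 2 was. Of the libraries with IL3, leaving out replicate 1 gave -4.32 and replicate 2 gave -0.86. Per 1000 regions replicate 1 held 11.64 without and 7.32 with IL3, and replicate 2 held 0.

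**Figure D1:**
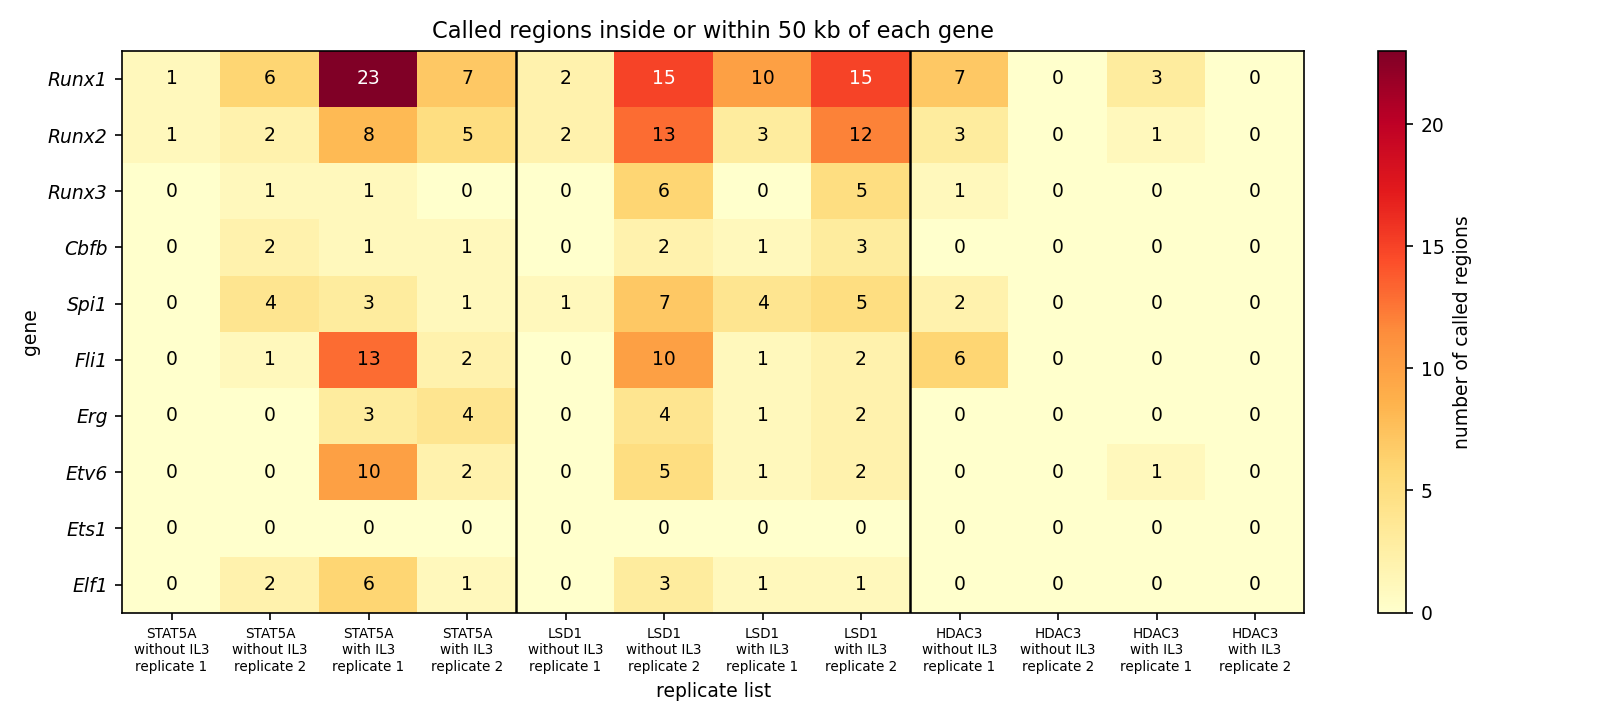
Number of called regions inside or within 50 kb of each gene (rows) in each of the 12 replicate lists (columns), with the count printed in each cell and the colour scale running from 0 to 23. Runx1 has the largest or equal largest count in each list, with 23 in STAT5A with IL3 replicate 1, and HDAC3 replicate 2 and Ets1 are at 0 throughout.

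In the pooled lists 6 of the 10 genes had a STAT5A region without IL3 and 9 had one with IL3. The shares of all protein-coding genes with one were 40.9% and 61.4%, and among the 6438 genes whose windows are as long as these they were 44.8% and 68.0%. LSD1 was called at 9 genes without and 10 with IL3, where 63.0% and 64.7% of all genes had it (70.2% and 72.1% of those of like window length). HDAC3 was called at 6 without and 2 with IL3, against 24.4% and 10.8% of all genes (27.5% and 11.7% of those of like window length). The median number of STAT5A regions with IL3 was 6 at these genes and 1 over all genes and over those of like window length. The genes with 10 or more such regions were Runx1 (20), Runx2 (12), Fli1 (12) and Etv6 (11), and 0.685% of all genes (1.26% of those of like window length) had that many. For LSD1 the medians were 5 and 4 at these genes against 1 and 2 over all genes, and for HDAC3 they were 1 and 0 against 0 and 0. Over genes of like window length they were 2 and 2 for LSD1 and 0 and 0 for HDAC3.

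Runx1, on chr16:92601466-92826074 and transcribed from the minus strand, held 6 STAT5A regions in the pooled list without IL3 and 20 with it. By replicate these were 1 and 6 without and 23 and 7 with IL3, so both lists with IL3 were above both without. The STAT5A lists with IL3 were also longer as a whole, with 13572 and 6280 regions against 352 and 4504. The numbers at Runx1 were not divided by list length. LSD1 had 15 pooled regions without and 19 with IL3, by replicate 2 and 15 against 10 and 15, which overlap. HDAC3 had 10 without and 4 with IL3, 7 and 3 in replicate 1. The HDAC3 lists with IL3 were shorter as a whole, with 1208 against 3347 regions pooled and 683 against 1632 in replicate 1. HDAC3 numbers at single genes, here and below, were not divided by list length. No other protein-coding gene lies within 50 kb, so these regions have no second gene in the window. Per 100 kb of window, Runx1 carried 6.16 STAT5A regions with IL3, more than 98.4% of all genes, and 3.08 HDAC3 regions without IL3, more than 99.2%.

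The strongest STAT5A region with IL3 at Runx1 lay 38.9 kb downstream of the distal start at chr16:92787112-92787286, at rank 297 of 15543, and it overlapped LSD1 with IL3. A second lay 42.7 kb upstream of that start (chr16:92868656-92868830, rank 1179). It overlapped no region of the other proteins in the pooled lists, and an LSD1 region with IL3 in replicate 2 (rank 7411 of 11567). Both STAT5A regions were gained, that is, called in the pair of replicate lists with IL3 and absent from the pair without it. LSD1 with IL3 was strongest 2.3 kb downstream of the distal start, where the pooled region had rank 139 of 17087. It had score 71.8 (rank 87 of 6476) and 77.3 (rank 295 of 11567) in the replicates with IL3. Without IL3 the same place had 54.8 (rank 1682 of 15783) in replicate 2 and no call in replicate 1, whose lowest score was 60.5. A further LSD1 region, 48.3 kb below the lower bound (chr16:92552996-92553166), ranked 523 with IL3. It was in 3 of the 4 replicate lists, all but replicate 1 without IL3.

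**Figure D2:**
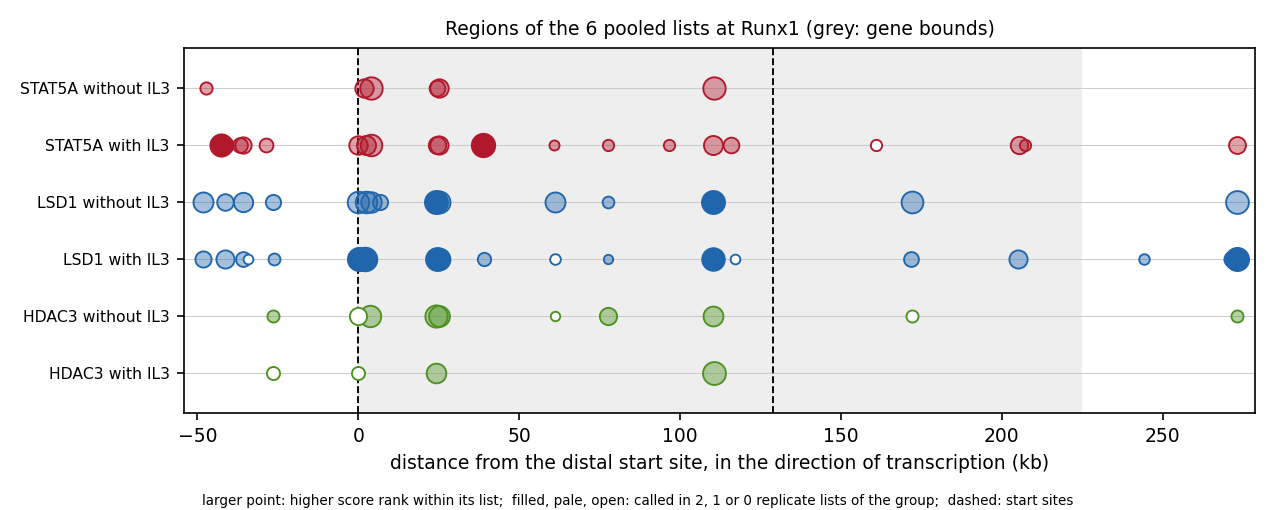
Position of each region of the 6 pooled lists (rows) at Runx1, as distance in kb from the distal start site in the direction of transcription, with gene bounds in grey and start sites dashed. Larger points rank higher within their list, and filled, pale and open points were called in 2, 1 or 0 replicate lists of their group; all 6 rows have a point 24.3 kb downstream of the distal start and at the place 18.3 kb upstream of the proximal start.

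Overlapping neighbours were chained into merged regions, so the regions in such a chain need not all overlap each other. Of 207 merged regions in all 6 pooled lists genome-wide, 2 lay at these genes, both in Runx1 between its start sites. The first, chr16:92801627-92801884, was 24.3 kb downstream of the distal start, and the second, chr16:92715540-92715803, was 18.3 kb upstream of the proximal start. Such a region lay within 50 kb of 1 of the 10 genes, where 1.85% of all genes had one. LSD1 was called at both places in all 4 replicate lists. At the first it scored 105.8 (rank 124 of 1005) and 70.1 (rank 957 of 15783) without IL3 and 44.6 (rank 349 of 6476) and 40.0 (rank 1654 of 11567) with IL3. At the second it scored 136.1 (rank 56) and 64.0 (rank 1179) without and 22.3 (rank 2290) and 56.0 (rank 705) with IL3. These lists have unlike score scales, so the scores do not show a change with IL3. The HDAC3 region at the second place was the highest-ranking one at these genes, rank 51 of 1208 with IL3, called in replicate 1. A region called with all 3 antibodies can also come from signal that does not depend on the antibody, and that was not tested, since the input was not used here. Without the regions in all 6 lists, the STAT5A, LSD1 and HDAC3 log2 ratios of the number of regions were 2.24, -0.02 and -2.17. Per 1000 regions they were -0.47, -0.12 and -0.59.

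Runx2 (chr17:44495987-44814797, minus strand) held 3 STAT5A regions without and 12 with IL3 in the pooled lists, by replicate 1 and 2 against 8 and 5. LSD1 had 15 and 13, by replicate 2 and 13 against 3 and 12. HDAC3 had 6 and 0, with 3 and 1 in replicate 1, where the lists with IL3 were also the shorter ones. The LSD1 region 96.4 kb downstream of the start (chr17:44718166-44718336 with IL3) was the highest-ranking LSD1 region at any of the 10 genes. It was called in all 4 replicate lists, with scores of 151.2 (rank 39 of 1005) and 109.7 (rank 304 of 15783) without IL3 and 79.2 (rank 67 of 6476) and 85.3 (rank 221 of 11567) with IL3. These lists have unlike score scales, and by rank the region is in the upper 10% of each. STAT5A with IL3 was strongest 112.4 kb downstream at chr17:44702125-44702299 (rank 1022 of 15543), a gained region. At 142.2 kb downstream STAT5A, LSD1 and HDAC3 were all called without IL3, at ranks 342 of 5043, 563 of 16886 and 493 of 3347. With IL3 the same place had STAT5A at rank 10980 and LSD1 at rank 2311, and no HDAC3. All the regions named for Runx2 lay inside the gene.

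Runx3 (chr4:135120645-135177990, plus strand) held 0 STAT5A regions without and 4 with IL3 in the pooled lists. The replicate lists gave 0 and 1 against 1 and 0, so the groups overlapped. LSD1 had 7 without and 6 with IL3, from replicate 2, which held 6 and 5, while replicate 1 held 0 and 0. Its highest STAT5A region with IL3 ranked 3915 of 15543, 8.3 kb downstream of the first start. Cbfb (chr8:105170674-105217989, plus strand) held 2 STAT5A regions without and 1 with IL3, and 1 and 4 of LSD1. Its window holds 5 other protein-coding genes. An LSD1 region 269 bp downstream of the Cbfb start was gained, at ranks 4429 of 6476 and 2941 of 11567 in the lists with IL3. The pooled LSD1 list without IL3 had a neighbouring region across the start itself (rank 3744 of 16886), also called in replicate 2.

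Fli1 (chr9:32422204-32543432) held 2 STAT5A regions without and 12 with IL3 in the pooled lists, by replicate 0 and 1 against 13 and 2. Its strongest, 6.2 kb above the upper bound at chr9:32549626-32549800, was the highest-ranking STAT5A region at any of the 10 genes, rank 83 of 15543. It scored 488.5 (rank 101 of 13572) in replicate 1 and 120.0 (rank 183 of 6280) in replicate 2 with IL3 and was called in neither list without. A second lay 1.2 kb below the lower bound (chr9:32420875-32421049, rank 470) and was gained as well. Neither overlapped LSD1 or HDAC3, but an LSD1 region of replicate 1 with IL3 lay close to the first, at chr9:32549385-32549533 (rank 2290 of 6476). LSD1 had 9 regions without and 3 with IL3, by replicate 0 and 10 against 1 and 2. HDAC3 had 5 and 0, with 6 and 0 in replicate 1, again with shorter lists with IL3. All 5 HDAC3 regions lay inside the gene and overlapped LSD1 without IL3, the highest at rank 493 of 3347. LSD1 without IL3 was strongest at rank 1459 of 16886, and STAT5A with IL3 and HDAC3 without IL3 were called at the same place. The strand of Fli1 is not in the gene table used, so upstream and downstream cannot be told apart for it.

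Spi1 (chr2:91082374-91115759) held 3 STAT5A regions without and 4 with IL3, by replicate 0 and 4 against 3 and 1, and LSD1 had 7 and 8, by replicate 1 and 7 against 4 and 5. HDAC3 had 3 without and 0 with IL3, the latter from the shorter list. Per 100 kb its window held 6.0 LSD1 regions with IL3, more than 95.5% of all genes, but 5 other protein-coding genes share it. At chr2:91082883-91083186, just inside the lower bound of the gene, STAT5A and LSD1 were called in both conditions and HDAC3 without IL3. LSD1 there was in replicate 2 without IL3 (rank 2217 of 15783) and in the 2 lists with IL3 (ranks 3212 of 6476 and 5850 of 11567), and HDAC3 was in replicate 1 (rank 646 of 1632). A place with the same 3 proteins lay 11.8 kb below the lower bound, inside Slc39a13, and there LSD1 ranked 1294 of 6476 and 1942 of 11567 in the replicates with IL3. LSD1 was called in all 4 replicate lists 39.3 kb below the bound, a region inside Rapsn.

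Etv6 (chr6:134035700-134270158, plus strand) held 0 STAT5A regions without and 11 with IL3 in the pooled lists. The replicate lists gave 0 and 0 against 10 and 2, so both with IL3, which were also the longer lists, were above both without. The strongest lay 47.0 kb downstream of the start at chr6:134082633-134082807, with rank 706 of 15543, score 242.4 in replicate 1 and no call in replicate 2. LSD1 (rank 13107 of 17087) and HDAC3 (rank 250 of 1208) were called at the same place with IL3, HDAC3 in replicate 1 as well, and neither was called there without IL3. LSD1 had 3 regions without and 4 with IL3, by replicate 0 and 5 against 1 and 2. Erg (chr16:95359169-95586600, minus strand) held 0 STAT5A regions without and 6 with IL3, by replicate 0 and 0 against 3 and 4. The strongest, at chr16:95436746-95436920, ranked 1369 of 15543 and was called in replicate 1 only. LSD1 had 3 and 2 at Erg, the strongest at rank 982 of 17087 with IL3, called in all replicate lists but replicate 1 without IL3.

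Elf1 (chr14:79481174-79582491, plus strand) held 4 STAT5A regions without and 6 with IL3, by replicate 0 and 2 against 6 and 1, which overlap. Its strongest, at chr14:79535011-79535185, ranked 1299 of 15543 and was called in replicate 1 only. A weaker one close by, at chr14:79534308-79534482 and rank 3067, was gained and overlapped LSD1 with IL3. LSD1 had 2 and 3 regions and HDAC3 had 0. Ets1 (chr9:32636241-32757820) stood at the other end. It had 0 regions in all 12 replicate lists and a single LSD1 region with IL3 in the pooled lists, rank 14839 of 17087, at 35.8 kb above the upper bound. A list without a region says that nothing passed the callers' floor there, not that no binding exists, and genes without a STAT5A region in the pooled list with IL3 are common, since 61.4% of all genes had one.

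**Figure D3:**
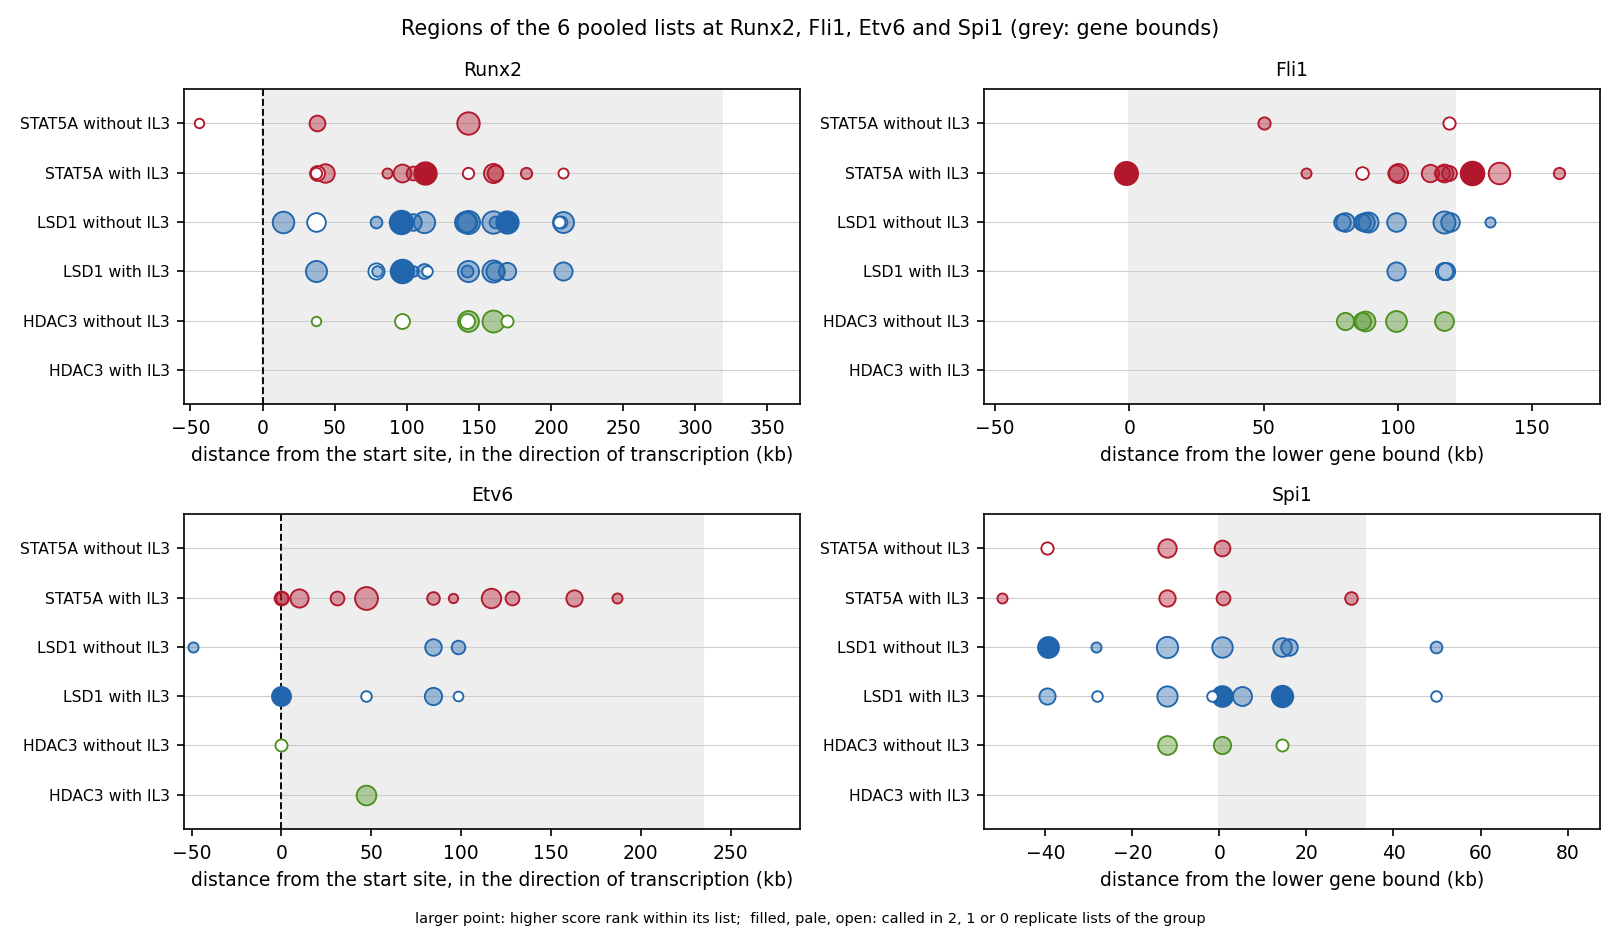
Position of each region of the 6 pooled lists at Runx2 and Etv6 (kb from the start site, dashed, in the direction of transcription) and at Fli1 and Spi1 (kb from the lower gene bound), with gene bounds in grey. Larger points rank higher within their list, and filled, pale and open points were called in 2, 1 or 0 replicate lists; Etv6 has 0 STAT5A points without and 11 with IL3, and of these 4 genes HDAC3 with IL3 has a point at Etv6 only.

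Calls that both replicates of a group share were counted next. Gained STAT5A regions numbered 6 at these genes, out of 97 merged STAT5A regions (6.19%), and 1811 of 20764 genome-wide (8.72%). They lay at Fli1 and Runx1 with 2 each and at Runx2 and Elf1 with 1 each. So 4 of the 10 genes had one, where 15.6% of all genes and 17.9% of those of like window length did. The share among merged regions was thus below the genome-wide one, while the genes have several regions each. A region is called lost in the reverse case. At these genes 0 STAT5A regions were lost and 0 were in all 4 lists, where 0.164% and 0.868% of all genes had one. With replicate 1 or 2 with IL3 left out, 20 or 63 regions counted as gained in place of 6, and with replicate 1 without IL3 left out, 12 counted as lost in place of 0. Of the 6, those at Runx1 38.9 kb downstream and at Elf1 overlapped LSD1 with IL3 in the pooled lists, and that at Runx1 42.7 kb upstream did so in replicate 2 alone. Those at Runx2 and Fli1 overlapped neither LSD1 nor HDAC3 in any list. Close to that at Runx2, however, LSD1 was called at chr17:44702581-44702797 in the pooled lists of both conditions. Close to the higher-ranking one at Fli1, LSD1 was called in replicate 1 with IL3.

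**Figure D4:**
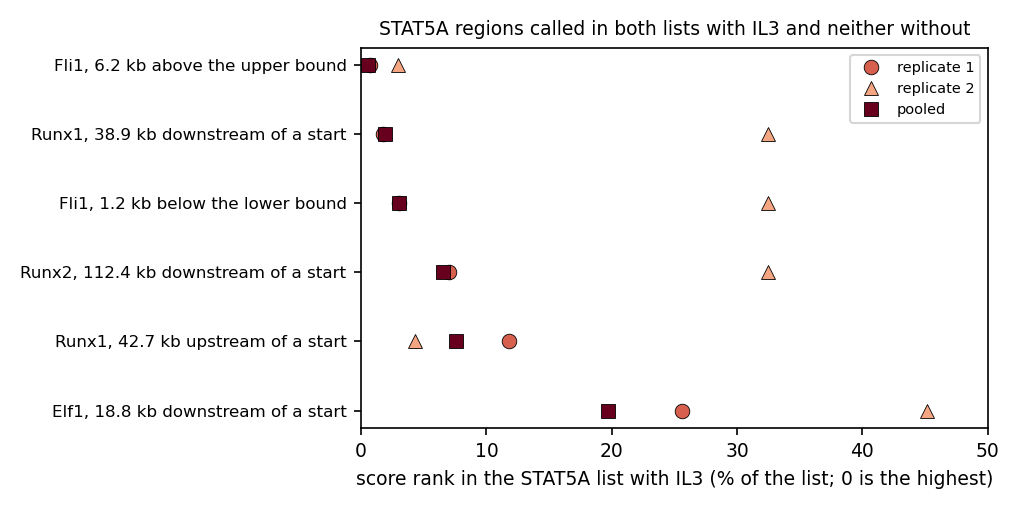
Score rank of the 6 gained STAT5A regions (in the pair of lists with IL3 and not in the pair without), as percent of the length of the list with IL3 (0 is the highest score), in replicate 1, replicate 2 and the pooled list. The region 6.2 kb above Fli1 is within the upper 10% of all 3 lists, and 3 regions share rank 2037 of 6280 in replicate 2.

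For LSD1, 1 region was gained (Cbfb), 0 were lost and 4 of 82 merged regions (4.88%) were in all 4 replicate lists, against 540 of 22555 (2.39%) genome-wide. These 4 are the 2 in Runx1, the one in Runx2 and the one in Rapsn near Spi1, so 3 of the 10 genes had one, where 5.59% of all genes did. The shares of genes with a gained or a lost LSD1 region were 9.09% and 0.85% over all genes. In place of 1, 10 counted as gained when replicate 2 without IL3 was left out, 13 when replicate 1 with IL3 was and 5 when replicate 2 with IL3 was. In place of 0, 27 counted as lost when replicate 1 without IL3 was left out and 1 when replicate 1 with IL3 was. HDAC3 had 0 gained, 0 lost and 0 in all 4 lists among 20 merged regions. These counts could not differ from 0, since each rule asks for both replicates and replicate 2 held 0 regions at these genes. They therefore say nothing about HDAC3 here. Over all genes 0.00914%, 1.01% and 0.0457% had such a region. Leaving out replicate 2 without IL3 gave 15 lost, and leaving out replicate 2 with IL3 gave 1 gained, which follows from the 0 regions of replicate 2 at these genes.

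The 3 proteins were then compared region by region in the pooled lists. With IL3, 23 of 76 STAT5A regions at these genes (30.3%, 95% Wilson interval 21.1 to 41.3) overlapped LSD1, against 33.4% of the whole list, and 4 of 76 (5.3%, 2.1 to 12.8) overlapped HDAC3, against 4.6%. Of the LSD1 regions with IL3, 23 of 63 (36.5%, 25.7 to 48.9) overlapped STAT5A, against 30.4%. Without IL3, 9 of 20 STAT5A regions (45.0%, 25.8 to 65.8) overlapped LSD1, against 52.5%. In each of these 4 the interval covers the share of the whole list. The share of STAT5A regions with IL3 on LSD1 was 14.7% in the replicate 1 lists alone and 26.1% in the replicate 2 lists. Without IL3 it was 0% in replicate 1, which had 2 STAT5A regions, and 44.4% in replicate 2. Of the LSD1 regions with IL3, 45.5% in replicate 1 and 12.8% in replicate 2 had STAT5A. Intervals cover counting error only.

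HDAC3 without IL3 lay almost wholly on LSD1. Of its 26 regions at these genes, 24 (92.3%, 95% Wilson interval 75.9 to 97.9) overlapped LSD1 without IL3, against 69.6% of the whole HDAC3 list, and 15 (57.7%, 38.9 to 74.5) lay where STAT5A was called with IL3, against 40.4%. Read the other way, 24 of 62 LSD1 regions without IL3 (38.7%, 27.6 to 51.2) carried HDAC3, against 13.8%, and 15 of 76 STAT5A regions with IL3 (19.7%, 12.3 to 30.0) lay where HDAC3 was called without IL3, against 8.7%. Of the 26, 16 were called in HDAC3 replicate 1, 0 in replicate 2 and 10 in neither, so these shares rest on 1 HDAC3 library and the pool. Of the 62 LSD1 regions without IL3, 5 were called in replicate 1 and 57 in replicate 2, so the LSD1 side rests mostly on replicate 2. No test of the shares was made. Several of the 26 lie in the same gene, with 10 at Runx1, and are not independent. Over both conditions the merged regions with all 3 proteins numbered 17 of 144 at these genes (11.8%) and 2038 of 35997 (5.7%) genome-wide. Runx1 held 8 of the 17, Runx2 and Fli1 3 each, Spi1 2 and Etv6 1. Regions with STAT5A alone were 55 of 144 (38.2%, genome-wide 28.4%) and those with LSD1 alone 47 (32.6%, genome-wide 42.8%).

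Without IL3 all 3 proteins were called in 7 merged regions at these genes, out of 823 genome-wide. Of the 7, 4 lay in Runx1, 1 in Runx2 and 2 at Spi1. In that of Runx1 at chr16:92822128-92822437, STAT5A and HDAC3 each overlapped LSD1 but not each other. With IL3 all 3 proteins were called in 4 of 651, 3 in Runx1, its distal promoter among them, and 1 in Etv6. So 3 of the 10 genes had such a region without and 2 with IL3, where 8.3% and 5.47% of all genes did. Of the pooled LSD1 regions at these genes, 37 of 62 without IL3 (59.7%, 47.3 to 71.0) overlapped one with IL3, against 52.9% of the list. For STAT5A, 9 of 76 regions with IL3 (11.8%, 6.4 to 21.0) overlapped one without, against 10.9%. Score ranks at these genes were spread over the lists. The upper 10% of the list by score held 8 of the 76 STAT5A regions with IL3 (10.5%, against 10.2% of the list, since ties widen it) and 10 of the 62 LSD1 regions without IL3 (16.1%, against 11.0% of that list).

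**Figure D5:**
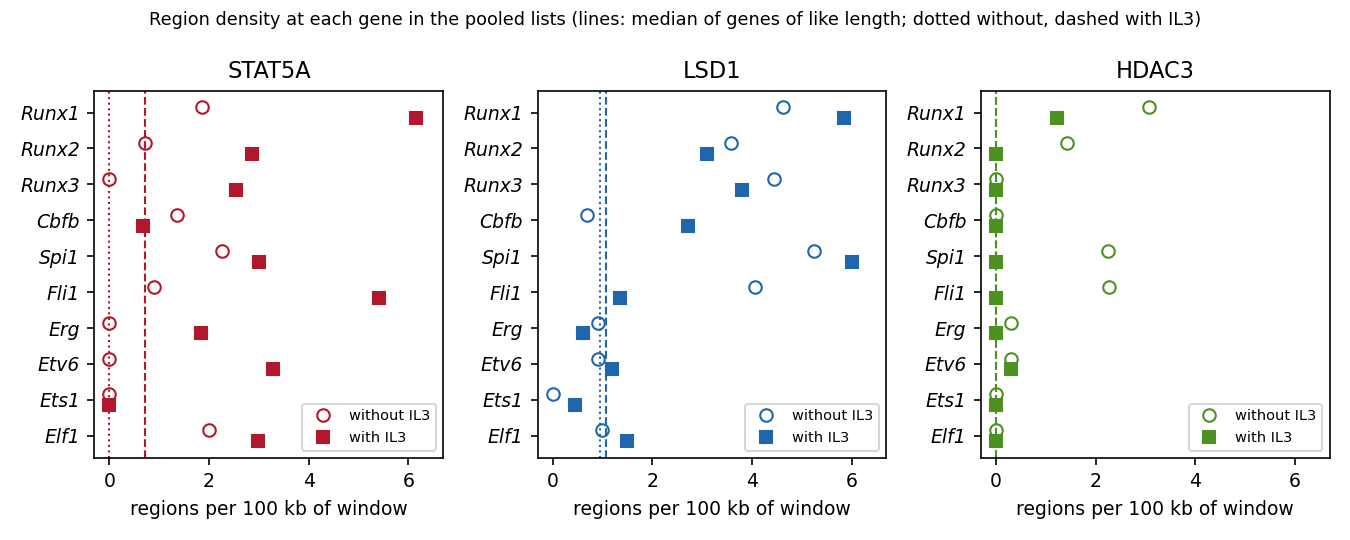
Regions per 100 kb of gene window (gene plus 50 kb on each side) for the 10 genes in the pooled lists of STAT5A, LSD1 and HDAC3, without IL3 (open circles) and with IL3 (squares). Vertical lines mark the median of genes of like window length, dotted without and dashed with IL3; Runx1 reaches 6.16 for STAT5A with IL3, and Ets1 is at 0 or near it in every panel.

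Per length of window the genes spread widely. STAT5A regions with IL3 per 100 kb were 6.16 at Runx1, 5.42 at Fli1, 3.29 at Etv6, 3.0 at Spi1, 2.98 at Elf1 and 2.87 at Runx2, and the median of all genes was 0.86. Below these came Runx3 (2.54), Erg (1.83), Cbfb (0.68) and Ets1 (0). For LSD1 without IL3 the order differed, with Spi1 first (5.25), then Runx1 (4.62), Runx3 (4.45), Fli1 (4.07) and Runx2 (3.58), against a median of 0.93. Erg, Etv6 and Elf1 lay at that median, between 0.9 and 0.99. HDAC3 without IL3 was 3.08 at Runx1, 2.26 at Fli1, 2.25 at Spi1 and 1.43 at Runx2, and at most 0.31 elsewhere. With 1 pooled list per group these densities carry no replicate error, and neighbours in the order were not tested against each other.

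Related genes outside the 10 give the setting. Of 20 other ETS genes, 17 had a STAT5A region with IL3 and 18 an LSD1 region with IL3, while 4 had HDAC3 without and 1 with IL3. A gained STAT5A region lay at 3 of them, Elk3, Etv3 and Elf4, where 15.6% of all genes had one. A merged region in all 6 lists lay at 1.85% of all genes and, of these 20, at Elk3 only. That region is a chain, since no region at Elk3 held all 3 proteins when the lists without IL3 were merged alone. Of 16 RUNX corepressor and partner genes, 14 had STAT5A with IL3, 14 had LSD1 with IL3, and 10 had HDAC3 without and 7 with IL3. Gained STAT5A regions lay at 5, namely Tcf3, Tal1, Gfi1, Cbfa2t3 and Gata1, against 15.6% of all genes. Ldb1 and Cbfa2t3 had a gained LSD1 region, against 9.09% of all genes. Cbfa2t3 encodes the corepressor ETO2, and Ldb1 and Tal1 belong to the complex that RUNX1 works with in blood stem cells. Regions in all 6 lists lay at 5 of these 16, Ikzf1, Gfi1b, Gata2, Lyl1 and Cbfa2t3, against 1.85% of all genes. Among 8 genes that IL3 is known to control, such as Cish, Osm and Pim1, 8 had STAT5A with IL3 and 6 a gained region, beside the 4 of 10 above. The 3 T cell genes each had STAT5A and LSD1 regions without and with IL3 and HDAC3 regions without IL3, while 0 of the 3 had HDAC3 with IL3. Over all genes the shares without and with IL3 were 40.9% and 61.4% (STAT5A), 63.0% and 64.7% (LSD1), and 24.4% and 10.8% (HDAC3). The 3 neuronal genes had 0 in every pooled list.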

How the data were processed

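Regions called from STAT5A, LSD1 and HDAC3 ChIP-seq in Ba/F3 cells were analysed, as 12 replicate lists and 6 lists of pooled libraries (18 in all) that the authors deposited, each with a score per region. The submitters' processing notes name Trimmomatic 0.30, Bowtie2 2.1.0, Picard 1.92, HOMER 4.8 and mm10; for the caller settings, the control, the threshold and what the score measures, the answer is not given in the sources used here. Depth is unknown.

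With Python 3.11.15 (numpy 2.4.6, scipy 1.17.1, pandas 2.3.3, matplotlib 3.10.9), regions on assembled chromosomes were assigned to RefSeq gene bounds (GRCm38.p6) with 50 kb on each side and called shared at 1 bp of overlap. Groups were compared on log2 ratios of mean numbers, and of numbers per 1000 regions, with 0.5 added (exact permutation, two-sided, threshold 0.05). All 10 genes are described, and regions named are the highest-scoring per gene and list, those gained or lost, and those in all 6 pooled lists; some others were named after their values were seen. Genes, comparison lists and tests were chosen with earlier results of these data known. Alternatives were 10 kb and 100 kb windows, overlap of 50% of both regions, the upper 50% of each list by score, lists of 1 replicate number, no regions in all 6 lists, a replicate block, and each replicate left out. The scripts were tested on simulated data. The result of 1 comparison list is not reported here. Peak sequences were not read, as no genome was used here.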

Additional observations from a re-analysis of the deposited data

How the results depend on the processing

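Of the alternatives tried, 9 turned the direction of a log2 ratio, and 17 moved a count by over 1.5 times or a share out of its interval. The other 110 did neither, though ratios that kept their direction could change in size. Leaving out 1 replicate in turn gave log2 ratios for the number of regions between 1.16 and 4.2 (STAT5A), -0.9 and 2.67 (LSD1) and -4.32 and 2.58 (HDAC3). For the number per 1000 regions they lay between -0.69 and 0.1, -0.53 and -0.13, and -1.59 and 2.44. The direction turned for STAT5A per 1000 (0.1) and LSD1 number (2.67 and 0.42). It also turned for HDAC3 number (2.58) and HDAC3 per 1000 (2.44 and 0.32). Where HDAC3 replicate 1 of a group was left out, that side held 0 regions, so the size of the ratio depends on the 0.5 added. In the upper 50% of each list by score HDAC3 per 1000 was 0.24. Counts of gained regions ranged from 6 to 63 (STAT5A), 1 to 13 (LSD1) and 0 to 1 (HDAC3), and of lost regions from 0 to 12, 0 to 27 and 0 to 15, since the rule then asks for fewer lists. With overlap of 50% of both regions LSD1 had 0 gained and 1 lost. The share of STAT5A regions with IL3 on LSD1 was 14.7% in the replicate 1 lists, that of LSD1 on STAT5A 12.8% and that of STAT5A on HDAC3 0% in the replicate 2 lists. The share of STAT5A regions without IL3 on LSD1 was 0% in the replicate 1 lists and 70.0% in the upper 50% of each list. The causes were not tested.

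Replicate numbers were used as a block in an alternative fit, whose smallest two-sided exact p is 0.5. The log2 ratios under the replicate block were 2.56 and -0.31 (number and per 1000) for STAT5A, 0.78 and -0.34 for LSD1, and -0.91 and 0.31 for HDAC3, so 0.78 and 0.31 turned direction. Deviations of same-numbered lists from their group means over 21887 genes had correlations of 0.06 (STAT5A), 0.34 (LSD1) and 0.25 (HDAC3). No label ties the numbers to a culture, and 2 pairs per protein do not settle whether the numbers pair the lists.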
